A study of Mus musculus with 8 samples.

Results

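Hepatic nuclear receptors are transcription factors that switch genes on or off when they bind bile acids, oxysterols, fatty acids, drugs or other small molecules. The set described here held 10 genes, chosen by name: the bile acid receptor FXR (Nr1h4), its partners SHP (Nr0b2) and LRH-1 (Nr5a2), the xenobiotic receptors PXR (Nr1i2) and CAR (Nr1i3), the liver X receptors LXRα (Nr1h3) and LXRβ (Nr1h2), the fatty acid receptor PPARα (Ppara), their shared heterodimer partner RXRα (Rxra) and the hepatocyte regulator HNF4α (Hnf4a). They were read by 13 of the 41174 probes of a whole-genome mouse array, and stood for 10 of the 16558 named genes that were detected. All 13 probes were found under the genes' current symbols, were detected on all 8 arrays and were saturated on none.

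Liver RNA came from male wild-type C57BL/6 mice, given standard chow (STD, 4 mice) or an atherogenic diet (ATH, 4 mice) for 4 weeks. The labels put the mice at 14 to 17 weeks of age when the diets began, while the study's methods give a wider range. The labels call the latter diet high-fat/high-cholesterol (HFHC), and the study's methods add that it held cholic acid, a bile acid. Each mouse had an array of its own, hybridized with RNA labeled with Cy3, and no mouse was pooled. The study set the diets side by side to find how a diet that produces fatty liver alters hepatic gene expression.

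FXR is the sensor of bile acids. In the textbook loop, bile acids activate FXR, FXR raises SHP, and SHP, which binds no DNA itself, holds back LRH-1 and HNF4α at the genes of bile acid synthesis. PXR and CAR raise drug-metabolizing P450 enzymes, the LXRs respond to oxysterols and raise sterol exporters and lipogenic genes, and PPARα responds to fatty acids and raises their oxidation. Most of these receptors bind DNA together with RXRα, so their activity is set by ligands and partners as well as by their amount. The arrays read transcripts only, and neither ligand nor protein was measured in these files.

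A value below is the log2 of the background-subtracted spot signal minus the 75th percentile of the same array, here called scaled log2 signal, and a log2 fold change is ATH minus STD. Levels are compared between arrays for 1 probe, not between probes. Each diet had a slide to itself, so the effect of the slide and that of the diet cannot be told apart. Before scaling, the 75th percentile was 8.81 to 8.91 on the STD arrays and 9.11 to 9.46 on the ATH arrays, a mean difference of 0.45, whereas the median of 10 spike-in probes was 10.19 to 10.28 and 10.30 to 10.40. Thus without scaling every log2 fold change is higher by 0.45, and with spike-in scaling by 0.31. Between 72.3% and 77.8% of spots were well above background on each array, and the number of arrays limits the precision.

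Each probe of the array is a stretch of 60 bases of a transcript. Those of Nr0b2, Nr1i3 and Hnf4a below lie in coding sequence. They are shown because Nr0b2 was, after scaling, the only member with a higher mean on the ATH diet, Nr1i3 had the most negative log2 fold change after Nr1i2, whose arrays fell into separate sets, and the Hnf4a probe reads the zinc-finger DNA-binding domain that defines this family. They are given 5′ to 3′ in the transcript's sense, with no base singled out.
Nr0b2: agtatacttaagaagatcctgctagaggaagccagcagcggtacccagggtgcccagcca
Nr1i3: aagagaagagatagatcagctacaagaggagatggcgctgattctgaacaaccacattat
Hnf4a: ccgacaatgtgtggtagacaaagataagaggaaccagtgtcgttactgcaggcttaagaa

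In the array design's coordinates, which use an older mouse assembly, these probes lie on the forward strand of chromosome 4 from 132932212 to 132932271, of chromosome 1 from 171187738 to 171187797 and of chromosome 2 from 163293456 to 163293515. The remaining 10 probes are not printed, since several of them may lie in untranslated sequence. In RefSeq's annotation of the assembly GRCm38.p6, all 10 members were matched by symbol, and Nr0b2 is a short gene on chromosome 4 from 133553376 to 133556686. The 250 bases before its start, chr4:133553126-133553375 on the forward strand, are shown because LRH-1, itself a member, is known to bind there. Capitals mark TCAAGG, the core letters of the LRH-1 site, and TATAAA, the TATA box.
Nr0b2 promoter: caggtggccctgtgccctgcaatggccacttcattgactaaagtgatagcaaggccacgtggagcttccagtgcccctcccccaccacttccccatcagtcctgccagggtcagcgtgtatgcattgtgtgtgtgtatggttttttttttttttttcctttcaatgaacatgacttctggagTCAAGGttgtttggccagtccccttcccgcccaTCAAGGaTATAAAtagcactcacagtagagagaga

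TCAAGG occurred in the 250 bases from 68 to 63 and from 35 to 30 bases before the start, and TATAAA from 28 to 23 bases before it. Searched on both strands, TCAAGG was found in 12.5% of 32851 promoters of the same length and at 2 or more places in 0.922% of them. Among the 14 listed promoters of the 10 members it was found in that of Nr0b2 alone, and TATAAA, present in 12.4% of all promoters, was found in those of Nr0b2 and Nr5a2. The half-site AGGTCA, which many nuclear receptors bind, was present in 14.0% of all promoters and in promoters of Nr1h4, Nr5a2 and Rxra. These are matches of letters and not measured binding sites.

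By limma, none of the 10 receptor genes and none of their 13 probes was called at an adjusted p under 5%, with the adjustment over all detected probes, against 8.0% of all 31056 detected probes (4.94% lower and 3.06% higher on the ATH diet) and 9.35% of all genes at their brightest probe. The adjusted p ranged from 0.0842 to 0.860. At an unadjusted p under 0.05 there were 3 member probes, for Nr1h4 and both probes of Rxra, against 28.4% of all probes. The ATH mean was lower for 9 of the 10 genes, where 65.1% of all genes were lower, but the count moved with the scaling, to 3 of 10 without scaling, 6 with quantile normalization or against the spike-ins and 8 with median scaling. The median log2 fold change of the 10 genes was -0.32, beside -0.14 over all genes. After this scaling 7 of the 10 lay below the median of all genes, a count that adding a constant to each array cannot change. After quantile normalization, which can change it, 5 of the 10 lay below it, with medians of -0.07 and -0.03, and after normexp background correction 6 of the 10.

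**Figure D1:**
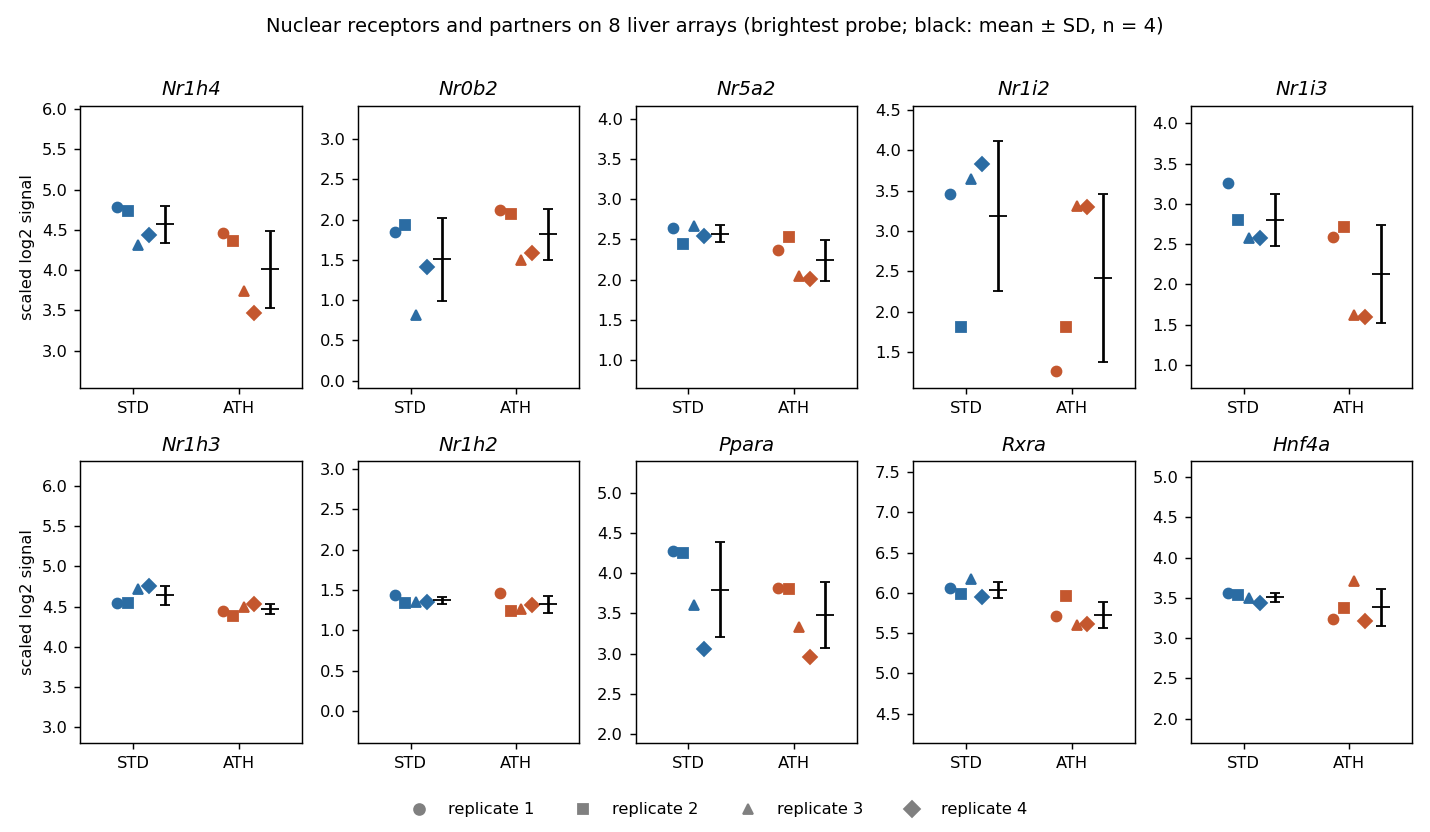
Scaled log2 signal of the brightest probe of each of the 10 genes on the 4 STD (blue) and 4 ATH (orange) arrays, with marker shapes for replicates 1 to 4 and black bars for the mean ± SD (n = 4). Each panel spans the same number of log2 units, and the diets overlap for every gene except Nr1h3.

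Nr1h4 encodes FXR, the bile acid receptor. Its scaled log2 signal was 4.79, 4.73, 4.31 and 4.44 on STD replicates 1 to 4 and 4.46, 4.37, 3.74 and 3.47 on ATH replicates 1 to 4. ATH replicates 3 and 4 lay below every STD array, while ATH replicates 1 and 2 lay among them. The means were 4.57 ± 0.23 (SD, n = 4) and 4.01 ± 0.48 (SD, n = 4). The log2 fold change was -0.56 (standard error 0.24, 95% interval -1.10 to -0.02), or 0.679 times the STD level, and its adjusted p by limma was 0.165. Its sign was negative under all scalings run, at -0.35 after quantile normalization, -0.25 against the spike-ins and -0.11 unscaled.

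Nr0b2 encodes SHP, the corepressor that FXR raises. It gave 1.85, 1.94, 0.82 and 1.41 on the STD arrays and 2.11, 2.06, 1.503 and 1.59 on the ATH arrays in scaled log2 signal. STD replicate 3 was the lowest of all 8, and the remaining arrays of the diets overlapped. The log2 fold change was 0.31 (standard error 0.27, 95% interval -0.29 to 0.91, adjusted p = 0.464 by limma). The sign was positive under all scalings, up to 0.62 with spike-in scaling and 0.76 without scaling (adjusted p = 0.155 and 0.0612 by limma). Its size rested on STD replicate 3, without which it was 0.0836 (adjusted p = 0.846 by limma).

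Nr5a2 encodes LRH-1, an activator of bile acid synthesis genes on which SHP acts. Its values were 2.65, 2.44, 2.67 and 2.54 on the STD arrays and 2.37, 2.53, 2.05 and 2.003 on the ATH arrays. ATH replicate 2 lay among the STD arrays and the other 3 ATH arrays below them. The log2 fold change was -0.33 (standard error 0.15, 95% interval -0.68 to 0.01, adjusted p = 0.187 by limma), and its sign turned without scaling, to 0.11.

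Nr1i2 encodes PXR, a receptor of drugs and of some bile acids. Its arrays fell into separate sets that did not follow the diets. The scaled log2 signal was 3.46, 3.64 and 3.84 on STD replicates 1, 3 and 4 and 3.31 and 3.30 on ATH replicates 3 and 4, but 1.803 on STD replicate 2 and 1.27 and 1.81 on ATH replicates 1 and 2. The highest and lowest arrays differed by 5.94-fold. With SDs of 0.93 and 1.04 (n = 4 each), the log2 fold change of -0.76 had a standard error of 0.58 and an interval of -2.08 to 0.55 (adjusted p = 0.412 by limma), which spans both a decrease and an increase. With single arrays left out it ranged from -1.23 (without STD replicate 2) to -0.38 (without ATH replicate 1). The SD of Nr1i2 within a diet was larger than that of 98.2% of genes.

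The same split of arrays was seen in genes that are no members, which were named after their values were seen. Of 14938 genes compared, 43 had a Pearson's r of at least 0.95 with Nr1i2. The closest over the 8 arrays was Pfas, an enzyme of purine synthesis (r = 0.993). These values of r are given as a description, since the arrays fall into separate sets and all genes were read on the same arrays. Pfas was -3.51 on STD replicate 2 and -4.08 and -3.76 on ATH replicates 1 and 2, and between -2.43 and -2.03 on the other arrays. Likewise U2af1, a splicing factor, was 2.74, 2.43 and 2.94 on those 3 arrays and 3.89 to 4.45 on the others. Prmt1, of the coregulators listed further below, was -0.30, -0.27 and -0.06 on the same 3 arrays and 2.02 to 2.36 on the others. What these arrays share is not given in the labels.

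Nr1i3 encodes CAR, which raises Cyp2b genes in response to phenobarbital-like compounds. It gave 3.26, 2.80, 2.58 and 2.57 on the STD arrays and 2.59, 2.72, 1.62 and 1.59 on the ATH arrays in scaled log2 signal. As with Nr1h4, ATH replicates 3 and 4 lay below every STD array and ATH replicates 1 and 2 did not. The log2 fold change was -0.67 (standard error 0.30, 95% interval -1.35 to 0.01, adjusted p = 0.179 by limma), negative under all scalings, at -0.36 with spike-in scaling and -0.23 without scaling.

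Nr1h3 encodes LXRα, the main oxysterol receptor of hepatocytes and also a macrophage gene. Its values stood close together, at 4.54, 4.54, 4.72 and 4.75 on the STD arrays and 4.44, 4.39, 4.50 and 4.53 on the ATH arrays. All ATH arrays lay below all STD arrays, which held for 13.8% of all detected probes, while 6.01% lay wholly above. The log2 fold change was -0.18 (standard error 0.11, 95% interval -0.43 to 0.08, adjusted p = 0.337 by limma), and it turned to 0.07 after quantile normalization, 0.14 against the spike-ins and 0.27 unscaled. The direction of Nr1h3 was therefore not settled by these arrays. The summed level of 10 macrophage markers (2 raised to the scaled log2 signal, added over the genes) was 58.9 to 80.6 on the STD arrays and 109 to 602 on the ATH arrays. The brightest probes weigh most in such a sum, as Lyz2 and Marco did on ATH replicate 4, at 8.41 and 7.54. By limma 4 of the 10 rose and 0 fell, while Cd163 had a log2 fold change of -1.33 that did not pass (adjusted p = 0.109). The part of macrophages in the Nr1h3 value was not tested. In such whole-liver RNA, fewer cells of a type and less RNA per cell cannot be told apart.

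Nr1h2, the ubiquitous LXRβ, varied least of the 10 genes. It gave 1.44, 1.34, 1.36 and 1.35 on the STD arrays and 1.47, 1.24, 1.27 and 1.31 on the ATH arrays. The diets overlapped, and the log2 fold change of -0.05 (95% interval -0.30 to 0.20, adjusted p = 0.790 by limma) turned positive with median, quantile, spike-in and no scaling. Only 1.58% of genes had a smaller SD within a diet, and for Nr1h3 the share was 3.16%.

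Ppara encodes PPARα, the receptor that raises fatty acid oxidation. Its probe was printed as 10 spots on each array, which gives the error of reading a spot within an array. The mean of the 10 spots was 4.28, 4.25, 3.60 and 3.05 on the STD arrays and 3.81, 3.80, 3.33 and 2.96 on the ATH arrays. In both diets replicates 1 and 2 were alike and high, replicate 3 was lower and replicate 4 lowest. The SD of the 10 spots within an array was between 0.063 and 0.082, and the SD between arrays was 0.59 on the STD diet and 0.41 on the ATH diet (n = 4 each). The latter holds mice, RNA preparation, labeling and position on the slide together, which cannot be told apart. The log2 fold change was -0.32 (standard error 0.31, 95% interval -1.02 to 0.38, adjusted p = 0.524 by limma), turning to 0.13 without scaling. With single arrays left out it ranged from -0.57 (without STD replicate 4) to -0.15 (without ATH replicate 4). A replicate number marks the same position on both slides, and the ATH minus STD differences between arrays of a number were -0.46, -0.45, -0.28 and -0.09 for replicates 1 to 4.

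**Figure D2:**
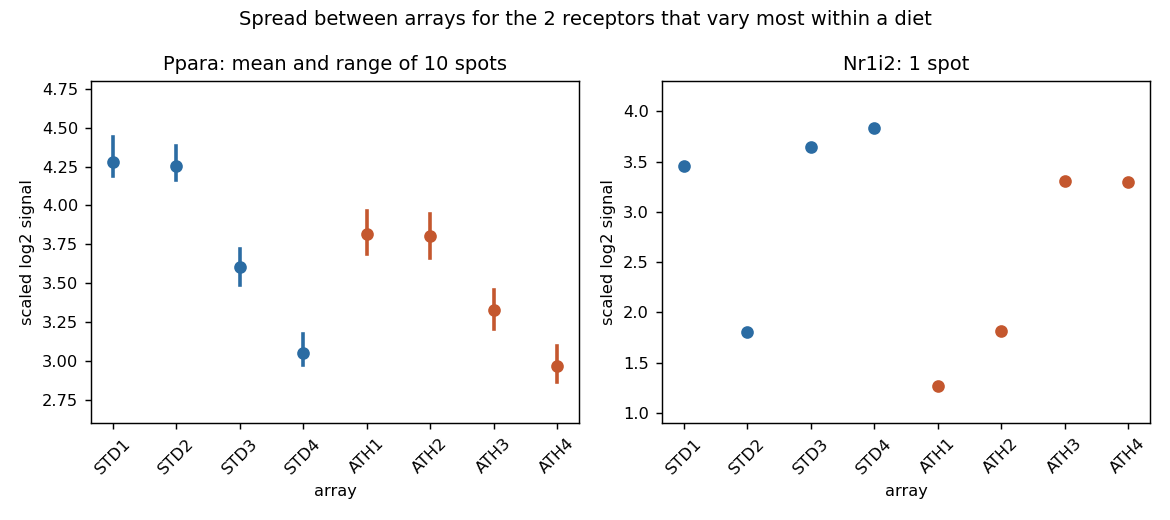
Scaled log2 signal on each array (STD blue, ATH orange) of Ppara, as the mean with the range from the lowest to the highest of its 10 spots, and of Nr1i2, read by 1 spot. The ranges of the spots are narrow beside the distance from the highest to the lowest array of a diet, and for Nr1i2 the arrays STD2, ATH1 and ATH2 lie apart from the other 5.

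Rxra, the partner with which FXR, PXR, CAR, the LXRs and PPARα bind DNA, had 2 probes. The brighter probe gave 6.06, 5.99, 6.17 and 5.94 on the STD arrays and 5.71, 5.96, 5.61 and 5.62 on the ATH arrays. Only ATH replicate 2 reached the STD range. The dimmer probe gave -0.12, -0.39, -0.25 and 0.01 on the STD arrays and -0.47, -0.53, -0.69 and -0.71 on the ATH arrays, with no overlap. The log2 fold changes were -0.32 (standard error 0.13, adjusted p = 0.144) and -0.41 (standard error 0.13, adjusted p = 0.0842) by limma. The latter is the smallest adjusted p of the set. After normexp background correction both probes of Rxra passed 5% (probes A_52_P188139 and A_51_P307370, adjusted p = 0.0483 and 0.0427 by limma), in a setting that called 20.4% of all probes, and without scaling both values were slightly positive, at 0.13 and 0.03.

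Hnf4a, which maintains hepatocyte identity, had 3 probes. The brightest gave 3.56, 3.54, 3.49 and 3.43 on the STD arrays and 3.24, 3.37, 3.70 and 3.21 on the ATH arrays, with ATH replicate 3 above all STD arrays and the other 3 below them. Its log2 fold change was -0.13 (95% interval -0.44 to 0.19, adjusted p = 0.578 by limma). The probe in the DNA-binding domain, printed above, gave -0.05 (95% interval -0.42 to 0.32, adjusted p = 0.860) and the remaining probe -0.08 (95% interval -0.41 to 0.24, adjusted p = 0.732). All 3 values were positive without scaling, between 0.32 and 0.40. The intervals of all 3 probes exclude a decrease of 1 log2 unit under the scaling used here.

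**Figure D3:**
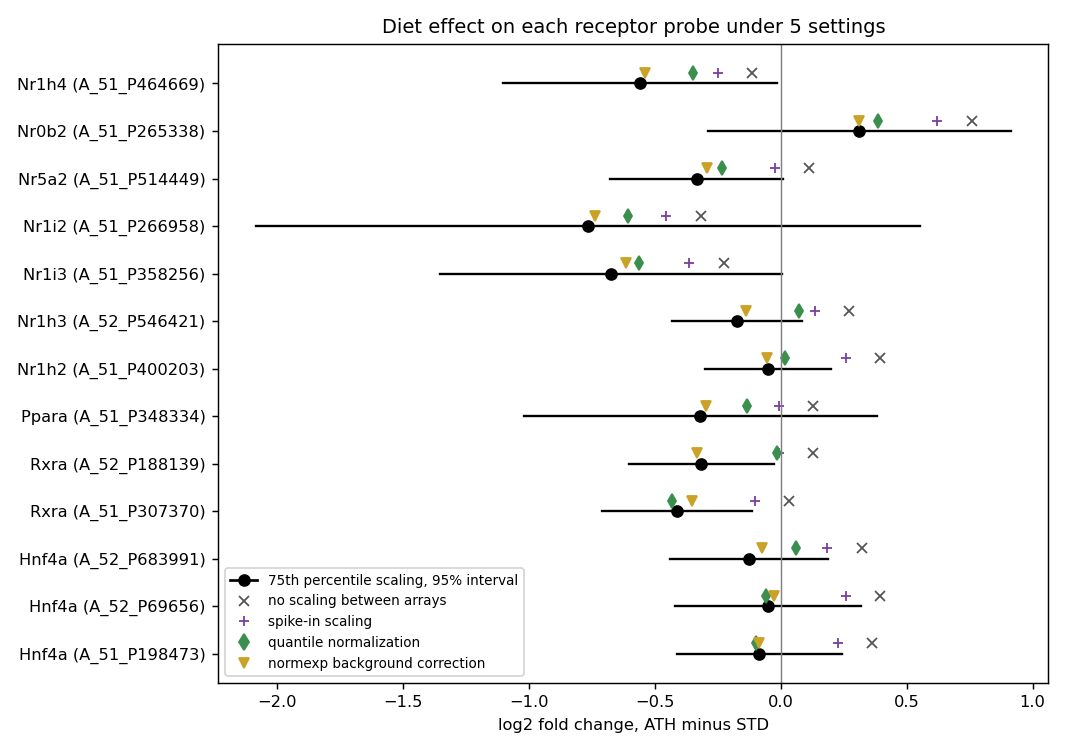
Log2 fold change (ATH minus STD) of the 13 probes with 75th percentile scaling (black points, with 95% intervals from limma) and, as colored markers, under 4 other settings. Points to the right of 0 are higher on the ATH diet: Nr0b2 stays there under all 5 settings, Nr1h4, Nr1i2 and Nr1i3 stay to the left, and the other genes cross 0 when arrays are not scaled.

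ATH replicates 3 and 4 both lay below ATH replicates 1 and 2 for 6 of the 10 members (Nr1h4, Nr0b2, Nr5a2, Nr1i3, Ppara and Rxra), and 45.8% of all genes had this order. Without scaling it was 5 members and 20.7% of all genes. These 2 arrays had the highest 75th percentiles, at 9.42 and 9.46. STD replicates 3 and 4 both lay below STD replicates 1 and 2 for 5 members, against 20.4% of all genes, and both orders held for 4 members (Nr1h4, Nr0b2, Nr1i3 and Ppara), against 13.4%. The members in both orders numbered 4 without scaling too, against 9.68% of all genes. The same 2 ATH arrays stood apart in markers of some other cells. The summed level of the 10 macrophage markers was 553 and 602 on ATH replicates 3 and 4 and 204 and 109 on ATH replicates 1 and 2, and 8 of the 10 were higher on both former arrays than on both latter ones, as were 19.3% of all genes. Marco, a macrophage scavenger receptor, gave 7.37 and 7.54 against 5.72 and 3.93 in scaled log2 signal. Lymphocyte markers had this order in 5 of 8 genes and the opposite order in 0. Stellate cell markers had it in 5 of 10 and the opposite in 3, and cholangiocyte markers in 3 of 7 and 1. Endothelial markers leaned the other way, with 2 of 8 in this order and 4 in the opposite one. All 8 hepatocyte markers had the opposite order, as had 45.8% of all genes. The summed levels of these markers were 3195 and 3005 on ATH replicates 3 and 4 and 3746 and 4059 on ATH replicates 1 and 2. The marker orders and sums are of scaled signal, from which most is subtracted on ATH replicates 3 and 4, and were not taken without scaling. The part of hepatocytes and of the other cells in the lower receptor values of ATH replicates 3 and 4 was not tested. Within a diet, 7 of the 10 members had a larger SD among ATH than among STD arrays, as had 68.6% of all genes. The SD within a diet was above that of 84.1% of genes for Nr1i3, 85.4% for Ppara, 78.5% for Nr0b2 and 72.8% for Nr1h4. The other genes were steadier, at 32% for Nr5a2, 21.9% for Hnf4a, 12.2% for Rxra and the low shares of the LXRs given above.

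Differences between 2 genes on the same array are left as they are by any scaling that adds 1 constant per array, though not by quantile normalization. All 45 pairs of members were compared between diets with two-sided exact permutation tests, for which 4 arrays against 4 allow no p below 0.0286. In 2 of the 45 pairs the diets did not overlap, both with Nr0b2, and no pair passed after adjustment over the 45 (smallest adjusted p = 0.524 by exact permutation test). With that lowest p, a few pairs could not have passed the adjustment whatever their change, so its outcome decides nothing about these 2. Nr0b2 minus Nr1h4, the log2 signal of SHP relative to that of its activator FXR, was -2.94, -2.79, -3.49 and -3.03 on the STD arrays and -2.34, -2.30, -2.23 and -1.89 on the ATH arrays. It was higher on each ATH array than on any STD array, by 0.87 on average, or 1.83-fold. For Nr0b2 minus Nr1i3 the change was 0.98, or 1.98-fold. These pairs were singled out after their values were seen, and 18.0% of all genes set against Nr1h4, and 16.4% set against Nr1i3, were likewise higher on all ATH arrays. When single arrays were left out the first change ranged from 0.73 to 0.96. After quantile normalization the changes of Nr0b2 minus Nr1h4 and Nr0b2 minus Nr1i3 were 0.74 and 0.95.

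**Figure D4:**
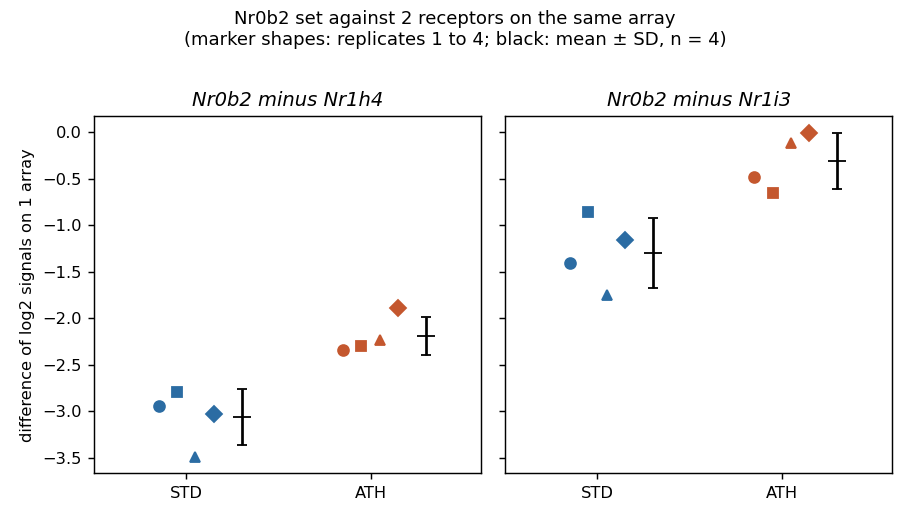
Log2 signal of Nr0b2 minus that of Nr1h4 (left) and of Nr1i3 (right) on the same array, on 4 STD (blue) and 4 ATH (orange) arrays, with black bars for the mean ± SD (n = 4). In both panels every ATH array lies above every STD array.

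The genes that these receptors are known to control were taken as lists, beside the receptors themselves. Among 11 detected FXR targets, Nr0b2 included, 1 rose and 0 fell at 5% by limma, with a median log2 fold change of -0.18 beside -0.14 over all genes. Of all genes, 4.05% rose and 5.30% fell, a background for this and the following lists. These shares were 25.9% and 1.35% without scaling, 9.95% and 1.40% with spike-in scaling and 4.25% and 3.0% after quantile normalization. The FXR targets called higher then numbered 4, 3 and 1 and those called lower 0, and their median turned to 0.26, 0.13 and 0.16. Some genes stand in more than 1 list. Pltp, also counted among the LXR targets below, was called without scaling and with spike-in scaling (adjusted p = 0.0154 and 0.0328 by limma). The gene that rose was Slc51b, a subunit of the basolateral bile acid exporter OSTα-OSTβ, with -2.72 ± 1.06 on the STD diet and -0.73 ± 0.45 on the ATH diet (SD, n = 4; log2 fold change 1.99, adjusted p = 0.0427). The bile salt export pump gene Abcb11 had a log2 fold change of -0.18 (adjusted p = 0.325) and the phospholipid exporter gene Abcb4 an adjusted p of 0.997. Without scaling Abcb4 was called higher (adjusted p = 0.0442 by limma). The Slc51b call was lost when any array other than STD replicate 4 was left out (highest adjusted p = 0.105) and after quantile normalization.

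Of 4 genes of bile acid synthesis and uptake, listed from general knowledge as repressed by bile acids, 3 fell. Cyp8b1, the sterol 12-alpha-hydroxylase that makes cholic acid, went from 2.61 ± 0.43 to -1.40 ± 1.51 in scaled log2 signal (SD, n = 4). It had a log2 fold change of -4.003 with a standard error of 0.65 (adjusted p = 0.0165 by limma), and was also called with spike-in scaling and without scaling. Slc10a1, the bile acid uptake transporter NTCP, fell by 0.98 and Cyp27a1, a sterol 27-hydroxylase, by 0.72 (adjusted p = 0.0472 and 0.0284), and neither was called with spike-in scaling or without scaling. Cyp7a1, the rate-limiting enzyme of bile acid synthesis, had a log2 fold change of -0.48 with a standard error of 0.55 (adjusted p = 0.598). Its SD was 0.96 among STD and 0.92 among ATH mice. With 1 array left out, 3 of the 4 genes were called without ATH replicate 1 or 2, 2 without STD replicate 2, 1 without STD replicate 1 or 4 or ATH replicate 3 or 4, and 0 without STD replicate 3, where Cyp8b1 had an adjusted p of 0.0504.

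Among 16 detected PXR and CAR targets, 7 fell and 0 rose, with a median log2 fold change of -0.88. Cyp2b10, the CAR target most used as its readout, fell by 2.41 (standard error 0.50, adjusted p = 0.0300) and Cyp3a11, that of PXR, by 1.83 (standard error 0.17, adjusted p = 0.00339 by limma). Cyp2b13 fell by 2.94 and Cyp2c55 by 2.18 (adjusted p = 0.0324 and 0.0179 by limma). P450 genes of 1 subfamily are near-copies of each other, so that their probes may share transcripts. Gadd45b, a growth arrest gene that CAR induces, had a log2 fold change of 1.63 that did not pass (adjusted p = 0.157). The number of targets called was 7 without ATH replicate 1 and 8 without ATH replicate 2, but 4 without STD replicate 1 or 3 and 3 without STD replicate 2 or 4 or ATH replicate 3 or 4. Cyp3a11 and Cyp2c55 passed with each array left out (highest adjusted p = 0.0148 and 0.0491 by limma), while Cyp2b10 lost the call without STD replicate 2 or 4 or ATH replicate 3 or 4 (highest adjusted p = 0.0747) and Cyp2b13 without these or STD replicate 1 (highest adjusted p = 0.0759).

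LXR targets showed the opposite sign. Of 13 detected, 7 rose and 0 fell, with a median of 0.81, and none of the scalings turned the sign of this median. Lpl, lipoprotein lipase, rose by 2.31, Abcg1, a sterol exporter, by 2.28, and Abcg8 and Abcg5, which together form the biliary sterol pump, by 2.20 and 2.09 (adjusted p from 0.00365 to 0.0191 by limma). Srebf1, the lipogenic regulator that LXR raises, had a log2 fold change of 1.02 with an adjusted p of 0.0771, and Fasn, fatty acid synthase, one of -0.15 with 0.738. Scd1, a lipogenic desaturase, was among the 7 that rose, by 1.36 without overlap between the diets (limma, adjusted p = 0.00519). Both Scd1 and Srebf1 passed without scaling and with spike-in scaling (for Srebf1, adjusted p = 0.0147 and 0.0307 by limma). LXR targets called higher numbered 9 under each of these 2 settings and 8 after quantile normalization. Lpl, Abcg1 and Abca1 are macrophage genes as well. Of the 10 macrophage markers, the 4 called were Marco, Cd14, Lyz2 and Cd68, which rose by 3.43, 2.56, 2.27 and 1.92. The part of macrophages in the LXR targets was not tested. With 1 array left out, 5 to 8 LXR targets were called, and Lpl, Abcg1 and Abcg8 passed each time, while Abcg5 lost the call without STD replicate 3 or 4 (highest adjusted p = 0.0533 by limma). Macrophage markers called higher numbered 7 without scaling, 5 with spike-in scaling and 2 after quantile normalization. Each of the 4 macrophage calls was lost when any one of STD replicates 1 to 4 or of ATH replicates 3 and 4 was left out (highest adjusted p = 0.113, for Cd14).

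Among 18 PPARα targets, 9 fell and 0 rose, with a median of -0.71. Cyp4a14, a fatty acid omega-hydroxylase, fell by 3.82, Pdk4, a kinase that slows glucose oxidation, by 2.38, Vnn1, a pantetheinase, by 1.20 and Cyp4a10 by 1.16 (adjusted p from 0.00805 to 0.0427 by limma). Cpt1a, which admits fatty acids to mitochondria, had a log2 fold change of -0.03, and Fgf21, a fasting hormone, one of 2.02 that did not pass (adjusted p = 0.143). Without scaling or with spike-in scaling 4 of the 18 were called lower and 0 higher. The count was 9 without ATH replicate 1 or 2, 4 without STD replicate 2 or 4, 2 without STD replicate 1 or ATH replicate 3 or 4, and 1 without STD replicate 3. Pdk4 passed each time (highest adjusted p = 0.0282 by limma). Cyp4a14 lost the call when any array other than ATH replicate 1 or 2 was left out (highest adjusted p = 0.0964), Vnn1 without STD replicate 1, 2 or 3 or ATH replicate 3 or 4 (0.0774) and Cyp4a10 without STD replicate 3 (0.0504).

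Of 13 HNF4α targets, 1 rose (Apoa4, by 1.37) and 1 fell (Mttp, which loads lipid onto lipoproteins, by 0.46), with a median of -0.22. This median turned to 0.23 without scaling, 0.09 with spike-in scaling and 0.02 after quantile normalization, and under these 3 settings 0 of the 13 were called lower and 2, 1 and 1 higher. Mttp was then at -0.01 without scaling and -0.15 with spike-in scaling (adjusted p = 0.942 and 0.418 by limma). The 8 detected hepatocyte markers, albumin among them, had 0 genes called in either direction by limma and a median of -0.26. Apoa4 passed with each array left out (highest adjusted p = 0.0239 by limma), and Mttp lost the call when any array other than ATH replicate 2 was left out (highest adjusted p = 0.102). The median of the hepatocyte markers was 0.05 with spike-in scaling, 0.11 after quantile normalization and 0.19 without scaling, where 2 of the 8 were called higher. Of markers of other liver cells, 1 of 10 for stellate cells rose (Col3a1, by 1.74), 1 of 8 for endothelium (Lyve1, by 1.21), 1 of 7 for cholangiocytes (Sox9, by 1.04) and 0 of 8 for lymphocytes, and 0 fell. Without scaling 9, 5, 3 and 3 of these rose, with spike-in scaling 4, 2, 2 and 0, and after quantile normalization 2, 1, 1 and 0. The calls of Col3a1 and Sox9 were lost when any array other than ATH replicate 1 or 2 was left out, and that of Lyve1 when any other than ATH replicate 2 was (highest adjusted p = 0.0850, 0.0931 and 0.0892 by limma). Their part in the receptor values was not tested.

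Other regulators were taken as lists too. Of 30 detected other nuclear receptors (39 on the array), 0 rose and 3 fell, with a median of -0.26. Without scaling 3 rose and 1 fell, with a median of 0.18, and with spike-in scaling 0 rose and 1 fell, with a median of 0.05. Pparg, the adipogenic PPAR, went from 1.67 ± 0.25 to 0.53 ± 0.37 (SD, n = 4; log2 fold change -1.15, adjusted p = 0.0208), and was called with spike-in scaling and without scaling too. The orphan receptor Nr2c1 fell by 0.63 and lost the call under those 2 scalings. Leaving out STD replicate 1, STD replicate 4 or ATH replicate 4 ended the calls of Pparg and Nr2c1, with an adjusted p for Pparg of up to 0.0629, and Nr2c1 lost it without further arrays too (highest adjusted p = 0.0765). None of the other retinoid X receptors was called, with log2 fold changes of -0.31 for Rxrb and -0.16 for Rxrg. Among 20 coregulators, which receptors recruit to open or close chromatin, 0 were called in either direction by limma and the median was -0.04, while without scaling 3 were called higher and the median was 0.40. The PPARα coactivator gene Ppargc1a had a log2 fold change of -0.53 (adjusted p = 0.107), and the corepressor gene Ncor1 one of -0.15. Among 15 other liver transcription factors, Srebf2, the regulator of cholesterol synthesis, fell by 1.07 and Onecut2 by 0.56, and neither was called with spike-in scaling or without scaling. Srebf2 lost the call without STD replicate 3 or ATH replicate 3 (highest adjusted p = 0.0608), and Onecut2 when any array other than ATH replicate 2 was left out (highest adjusted p = 0.0842).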

How the data were processed

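Liver RNA of 8 mice was read on 1-color Agilent whole mouse genome arrays. The authors ran Feature Extraction 9.5 (per the labels), and the deposited output holds spot intensity values, background-subtracted and not scaled between arrays. The authors also deposited log2 values from GeneSpring for 31595 non-control probes. These equal the log2 signal plus a constant per array, which follows the 75th percentile, and a constant per probe, within 0.001 for 100% of single-spot probes. Their array medians were 0.127 to 0.164 on the STD diet and -0.0394 to 0.116 on the ATH diet, and the baseline behind the probe constant is not given in the sources used here.

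Spots flagged as outliers were left out, spots of a probe averaged, and the log2 of the processed signal was centred on each array's 75th percentile, taken without control probes. A probe was detected when well above background, positive and significant, and unflagged on 3 or more of a diet's 4 arrays, in 1 diet or both. Diet was tested over 31056 detected probes with limma 3.58.1 in R 4.3.3 (lmFit, eBayes, two-sided, Benjamini-Hochberg), called at 5%. A gene is its brightest detected probe over all arrays. Exact permutation tests used scipy 1.17.1 in Python 3.11.15, with pandas 2.3.3, numpy 2.4.6 and matplotlib 3.10.9. Probes were named by accession (22951), symbol (6659) or synonym (3109) from a RefSeq table, and 8455 kept the file's name.

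Named are all members and, per list, the 4 called genes with the largest change, and all where 5 or fewer were called. Other genes were named after their values were seen. Some genes that this rule would name are not reported here. Members and lists were chosen with earlier results of these data known, and the lists come from general knowledge. Steps were tested on simulated data. Alternatives covered background correction (normexp, offset 50), scaling, deposited values, filter, test, threshold, probe per gene, single arrays left out and the replicate block. No slide block could be fitted.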

Additional observations from a re-analysis of the deposited data

Results flagged for a closer look

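Of 86 groups of 4 arrays that were examined, 1 held an array set apart from the other 3. For Nr1h2 (probe A_51_P400203), STD replicate 1 had a scaled log2 signal of 1.442, while the other STD arrays lay between 1.34 and 1.36. The gap to the nearest array was 0.861 of the range of the 4. Chance marks about 1 in 20 such groups.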

How the results depend on the processing

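The 10 receptors were called under none of the alternatives except normexp background correction, which called Rxra (1 gene, 2 probes). Without scaling between arrays the log2 fold change turned positive for Nr5a2 (0.11), Nr1h3 (0.27), Nr1h2 (0.40), Ppara (0.13), both probes of Rxra (0.13 and 0.0338) and the 3 probes of Hnf4a (0.32, 0.40 and 0.36). With spike-in scaling it was positive for Nr1h3 (0.14), Nr1h2 (0.26) and Hnf4a (0.19, 0.26 and 0.23). Quantile normalization turned Nr1h3 (0.0705), Nr1h2 (0.0162) and the brightest probe of Hnf4a (0.0611), and median scaling turned Nr1h2 (0.0232) and the DNA-binding domain probe of Hnf4a (0.0233). With each array left out, the values of this Hnf4a probe ranged from -0.18 to 0.0267, and no other member probe turned. Spike-in scaling and no scaling move every probe alike, and the cause of the turns after quantile normalization was not tested.

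Over all probes 2483 were called, against 7358 without scaling, 6329 with normexp, 1084 with no filter on dim probes, 164 at 1% and 22 by the methods' test with unequal variances. With each array left out, 416 (without STD replicate 3) to 4091 (without ATH replicate 2) were called, and 0 members each time (by limma on all arrays, 3 member probes had an unadjusted p under 0.05). LXR targets called higher numbered 4 at 1% and 0 by the unequal-variance test, and 5 to 8 with arrays left out. PXR and CAR targets called lower numbered 3 with no filter, 1 at 1% and 0 by the unequal-variance test, and 3 to 8 with arrays left out. PPARα targets called lower numbered 4 without scaling, with spike-in scaling and with no filter, 1 at 1% and 0 by the unequal-variance test, and 1 to 9 with arrays left out. Bile acid repressed genes called lower numbered 1 without scaling, with quantile normalization and with spike-in scaling, 0 at 1% and 0 by the unequal-variance test, and 0 to 3 with arrays left out. The cause of these moves was not tested.

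Arrays with the same replicate number deviated together with correlations of 0.0996, 0.229, 0.181 and 0.175 across probes for replicates 1 to 4, so that 1 of the 4 is not over 0.1, and ATH replicate 1 correlated best with STD replicate 2 (0.174). The numbers were therefore not taken as a pairing. With the replicate number as a block, 1269 probes and 0 members were called, and Slc10a1 (adjusted p = 0.0554 by limma), Nr2c1 (0.0534), Onecut2 (0.0534), Mttp (0.0599), Cd14 (0.0526) and Cd68 (0.0554) were not past 5%. Detection does not limit the members, whose probes were detected on all 8 arrays, but with 4 mice a diet the interval of Nr1i2 spans -2.08 to 0.55.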
